A study of Mus musculus with 4 samples.

Results

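The dorsal trachea of a Ctnnb1 knockout was compared with the dorsal trachea of its control in 3 groups of cells taken from the same pair of single-cell libraries, so that differences found in every kind of cell could be set apart from differences of the epithelium. A barcode was kept as a cell when it had 500 or more detected genes and no more than 15% mitochondrial UMIs, which left 13246 cells of the control and 6185 of the knockout, or 19431 of the 35901 cells kept in all 4 libraries of the series. A cell was called epithelial with at least 1 Epcam UMI and no Ptprc UMI, immune with at least 1 Ptprc UMI and no Epcam UMI, and other with neither. Both groups of mice carried P63-CreER, Ki67-lsl-Dre and Rosa26-rsr-GFP and received tamoxifen. Controls were Ctnnb1-fl/+ and knockouts Ctnnb1-fl/fl, so that the controls also carried 1 floxed allele. The Cre is placed at P63, a gene of basal cells, the Dre at Ki67 is released by Cre, and the GFP at Rosa26 is released by Dre. Tissue was taken 10 days after tamoxifen, the dorsal wall was dissected from the ventral wall, cells were released with papain, and RNA was read from the 5′ end of transcripts on the 10x GEM-X platform. How many mice were pooled into a library, at what hour they were killed and which exons are floxed is not given in the sources used. Each genotype was 1 library, so no test between genotypes was possible, every difference lies between these libraries, and all intervals (95%) cover counting error only.

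Ctnnb1 encodes beta-catenin, which links cadherins to the actin cytoskeleton at cell junctions and carries the Wnt signal into the nucleus, where it acts with TCF factors on target genes. In the pseudostratified epithelium of the mouse trachea, basal cells expressing Trp63 and Krt5 rest on the basement membrane and give rise to secretory and multiciliated cells. Beneath them lie fibroblasts, cartilage, smooth muscle of the dorsal wall, vessels and resident immune cells.

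Epithelial cells were a lower share of the knockout library, and immune and other cells a higher one. Epithelial cells were 9238 of the control, or 69.7% (69.0 to 70.5, exact Clopper-Pearson), and 3290 of the knockout, or 53.2% (51.9 to 54.4). Immune cells were 427 (3.22%, 2.93 to 3.54) and 285 (4.61%, 4.10 to 5.16), and other cells 3493 (26.4%, 25.6 to 27.1) and 2561 (41.4%, 40.2 to 42.6). The remaining 88 and 49 cells held UMIs of both markers and entered no sum. With each cell thinned to 3000 UMIs, which left out 835 and 256 shallow cells, the epithelial shares were 57.0% and 37.8%. Median depth was 21739.5 and 26485.5 UMIs in epithelial cells, 6457 and 10988 in immune cells and 7774 and 10051 in other cells, higher in the knockout each time. Median mitochondrial shares were higher in the knockout as well, at 1.90% and 2.50%, 0.921% and 1.13%, and 0.916% and 1.35%. Between them the dorsal libraries shared 24 barcodes.

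The 3 compartments differed in make-up between the libraries. Cells with UMIs of at least 4 of 8 multiciliated markers were 1390 of 9238 control (15%) and 220 of 3290 knockout epithelial cells (6.69%), and epithelial cells with at least 5 Krt5 UMIs and fewer than 2 multiciliated markers were 25.8% and 27.9%. Among other cells, those with UMIs of at least 4 of 8 fibroblast markers were 70.9% and 84.7%. Cells without an Epcam UMI but with at least 4 multiciliated markers were 325 (9.30%) of control and 26 (1.02%) of knockout other cells, with low depth (medians of 1647 and 1881.5 UMIs). The summed level of 8 chondrocyte markers in other cells was 1125 CPM (UMIs per 1000000 of the compartment) in the control and 206 in the knockout, and that of 8 smooth muscle and pericyte markers 360.1 and 112. Endothelial markers summed to 204 and 217 CPM there. Immune cells held similar shares with macrophage markers (49.9% and 52.6%) and with T and NK cell markers (20.6% and 23.5%). In immune cells 8 epithelial markers, among them Epcam, which the split sets to 0 there, summed to 88.8 and 10.6 CPM, against 7390 and 5756 in epithelial cells. Secretory markers were found in every compartment, at 211122 and 257686 CPM in epithelial, 2907 and 703 in immune and 11972 and 16260 in other cells. Fibroblast markers summed to 927 and 233 CPM in immune cells, against 15930 and 16176 in other cells. The part of make-up and of free RNA in the differences below was not tested, except where values within a marker-gated group of cells are given.

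Ctnnb1 RNA was lower in the knockout in each compartment and its ratio in epithelial cells was not below those elsewhere. It stood at 239.5 CPM in control and 186 in knockout epithelial cells, a ratio of 0.778 (0.766 to 0.789). Immune cells held 72.4 and 48.8 CPM, or 0.673 (0.549 to 0.825), and other cells 129.5 and 94.5 CPM, or 0.730 (0.694 to 0.768). The median ratio of all genes measured (as defined below) was 0.841 in epithelial, 0.886 in immune and 0.901 in other cells. The Ctnnb1 ratio was 0.730 in epithelial cells of the Krt5 gate, 0.732 in cells of the fibroblast gate and 0.649 in those of the macrophage gate. A 5′ read can lie outside the deleted exons, so these levels do not check the deletion. RNA of the eGFP reporter was at 327 and 226 CPM in epithelial cells (0.691, 0.682 to 0.700), at 118 and 91.5 in immune cells and at 135 and 109.5 in other cells, so eGFP UMIs were found in each compartment of both libraries. Within the Krt5 gate eGFP was at 708 and 419 CPM (0.591).

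Most differences ran towards lower levels in the knockout. A gene was taken as measured in a compartment when 1 of the libraries had 20 or more CPM from 50 or more UMIs and its level was 10% or more of that in the highest compartment, since lower levels can be free RNA. It was past the fold when the nearer bound of its ratio was at least 1.5-fold from 1. In epithelial cells 109 genes (1.9% of 5745 measured) were higher past the fold and 1032 (18.0%) lower. In immune cells these were 89 (1.43% of 6206) and 266 (4.29%), and in other cells 164 (2.39% of 6848) and 979 (14.3%). Higher genes were thus 9.55% of the calls in epithelial, 25.1% in immune and 14.3% in other cells, and the median log2 ratio of all measured genes was -0.25, -0.17 and -0.15. Median-of-ratios size factors in place of CPM raised every log2 ratio by 0.18, 0.17 and 0.18 and the share of higher calls to 26.3%, 52.4% and 37.7%. Leaving mitochondrial and ribosomal protein genes out of the totals gave 13.1%, 33.3% and 20.5%. Immune cells had the fewest UMIs (3106608 and 3506657, against 252760838 and 128024355 in epithelial cells), and wider intervals leave fewer genes past a bound.

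Among 4129 genes measured in all 3 compartments, 31 (0.751%) were higher and 50 (1.21%) lower past the fold in every one. Differences limited to the epithelium were sought with a stricter rule, so the counts of both kinds cannot be compared. A gene counted there when its epithelial bound was at least 2-fold, its ratio elsewhere lay on the other side of 1 or within a 25% difference either way, and the ratio of ratios had bounds of at least 1.5-fold. This held for 1 higher gene (0.0242%) and 2 lower genes (0.0484%). The same rule with the roles exchanged gave 0 higher (0.0%) and 1 lower gene (0.0242%) for immune cells, and 2 higher (0.0484%) and 0 lower (0.0%) for other cells. Of the 77 epithelial genes higher past the fold that could be read everywhere (1.86%), 31 were past it in both other compartments, 23 in 1 of them and 23 in neither. Of the 496 lower ones (12.0%), 50 were past it in both, 197 in 1 and 249 in neither. Among the same 4129 genes, immune cells alone had 43 higher (1.04%) and 130 lower (3.15%) past the fold, and other cells 93 (2.25%) and 409 (9.91%). Of the 496, 460 lay on the lower side in both other compartments and 3 on the higher side in both.

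**Figure D1:**
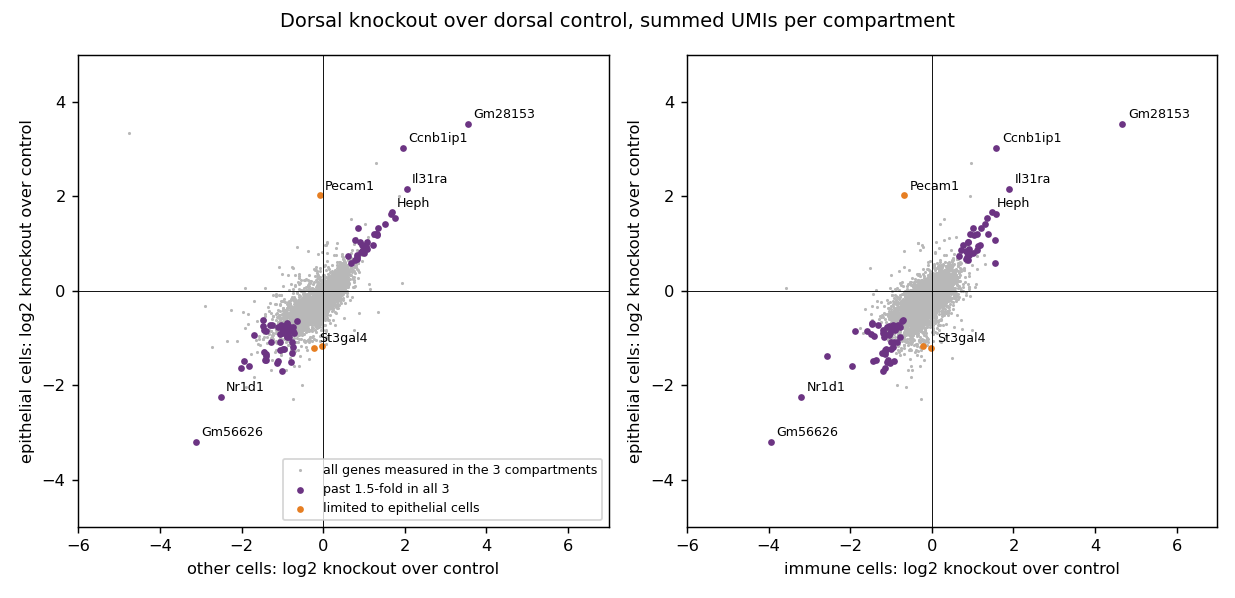
Each point is 1 of 4129 genes, with the log2 ratio of knockout to control CPM in epithelial cells on the vertical axis and in other cells (left) or immune cells (right) on the horizontal axis. The 81 genes past 1.5-fold in all 3 compartments lie along the diagonal, Pecam1 lies above the others at no difference on the horizontal axis of other cells, and 2 lower genes limited to epithelial cells (St3gal4 is named) lie below 0 near the vertical line.

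Genes higher in every compartment were mostly short transcripts of ribosomes and of the respiratory chain, together with a few genes that differed by much more. Of the 31, 12 were ribosomal protein or mitochondrial genes, and the other 19 were ranked by fold. Rps29, a protein of the small ribosomal subunit, was at 436 and 1335 CPM in epithelial cells (3.06, 3.04 to 3.09), at 929.6 and 2758 in immune cells (2.97) and at 586 and 1849.8 in other cells (3.16). Rps28 had ratios of 2.65, 2.46 and 2.86 and Rpl38 of 2.52, 2.30 and 2.54 in the same order. The ratios of each of these genes lay close together in the 3 compartments.

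Subunit genes of the respiratory chain were among the ranked genes as well. Atp5k, a subunit of the ATP synthase, was at 49.8 and 114 CPM in epithelial cells (2.29, 2.23 to 2.34), 48.6 and 125 in immune cells (2.58, 2.14 to 3.12) and 48.6 and 119 in other cells (2.44, 2.29 to 2.61). Ndufb1, of complex I, went from 86.0 to 168 CPM (1.95), from 99.5 to 227 (2.28) and from 76.2 to 178 (2.34). Ndufa3, of the same complex, was 1.82-, 2.16- and 1.96-fold higher, Pet100, an assembly factor of cytochrome oxidase, 1.93-, 2.19- and 2.07-fold, and Bola2, which takes part in the handling of iron-sulphur clusters, 1.74-, 1.99- and 2.0-fold. In the wider list of 26 nuclear genes of oxidative phosphorylation few were past the fold, all of them higher. They were 1 in epithelial (3.85%), 1 in immune (3.85%) and 2 in other cells (7.69%), beside 1.9%, 1.43% and 2.39% of all genes. The list medians of 0.09, 0.22 and 0.24 log2 lay above those of all genes (-0.25, -0.17 and -0.15). In the same order 15, 19 and 24 members had a ratio above 1.

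Gm28153, an annotated gene without a known role, had the furthest ratio. It was at 2.82 and 32.8 CPM in epithelial cells (11.6, 10.7 to 12.6), at 5.29 and 61.6 in other cells (11.6, 9.85 to 13.9) and, from 4 and 115 UMIs, at 1.29 and 32.8 in immune cells (25.5, 9.68 to 95.1). Il31ra, a receptor chain for interleukin 31, had nearly the same level in each compartment of a library: 27.4, 24.8 and 26.6 CPM in the control and 123, 92.7 and 110.1 in the knockout. Its ratios were 4.47 (4.34 to 4.6), 3.74 (2.91 to 4.86) and 4.14 (3.82 to 4.49), and within the Krt5, fibroblast, macrophage and T and NK gates 4.07, 4.28, 3.72 and 4.40. The control and knockout values of these genes did not come near each other in any compartment.

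Heph, which encodes the copper ferroxidase hephaestin, was at 322 and 1016 CPM in epithelial, 531 and 1465 in immune and 434 and 1392 in other cells, with ratios of 3.15, 2.76 and 3.21. Grik3, a glutamate receptor subunit, was at 374 and 1093, 931 and 2362, and 538 and 1832 CPM, with ratios of 2.93, 2.54 and 3.40. Whether these reads come from the named genes or from near-identical sequence elsewhere was not tested. Ccnb1ip1, a factor of meiotic recombination, was higher in each compartment and most so in the epithelium, at 9.67 and 78.8 CPM (8.16, 7.80 to 8.53), against 17.7 and 53 in immune cells (3.0, 2.21 to 4.13) and 22.4 and 86.9 in other cells (3.88, 3.55 to 4.24). Ddit4, an inhibitor of mTOR signalling, was at 31.7 and 79.6, 45.7 and 92.1, and 81.1 and 147 CPM, with ratios of 2.51, 2.02 and 1.81.

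**Figure D2:**
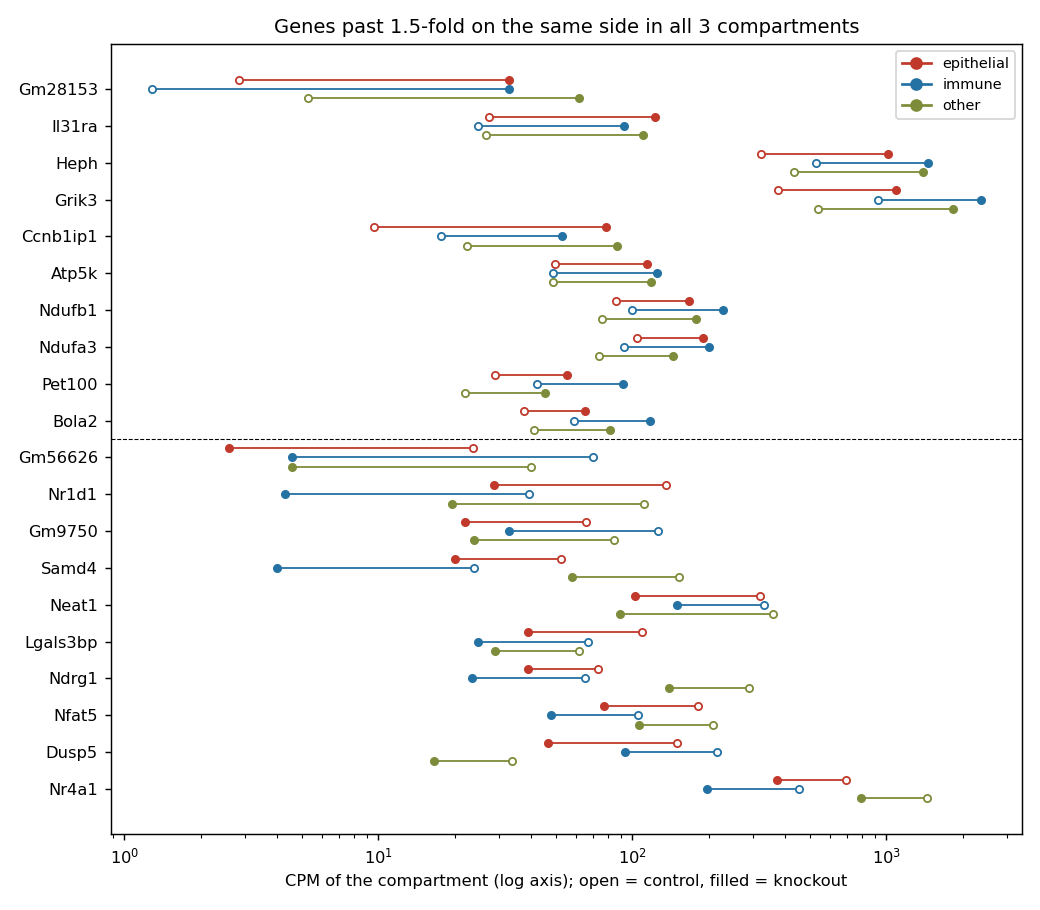
Levels of 20 genes past 1.5-fold in every compartment, in CPM on a log axis, with the control as an open and the knockout as a filled point for epithelial, immune and other cells. The 10 genes above the dashed line are higher in the knockout in each compartment, and the 10 below it are lower.

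Genes lower in every compartment included the clock repressors Nr1d1 and Nr1d2, the immediate early genes Nr4a1, Myc and Fosl1, and the Notch pathway genes Notch2 and Maml2. Gm56626 was at 23.7 and 2.58 CPM in epithelial cells (0.109, 0.0971 to 0.122), 69.9 and 4.56 in immune cells (0.0653, 0.0367 to 0.109) and 39.9 and 4.59 in other cells (0.115, 0.0947 to 0.138). Neat1, the scaffold RNA of nuclear paraspeckles, was at 319 and 102, 329 and 149, and 359 and 89.6 CPM, with ratios of 0.320, 0.454 and 0.250. Gm9750 had ratios of 0.331, 0.259 and 0.282. Samd4, a repressor of translation, went from 52.6 to 20.1 CPM in epithelial, from 23.8 to 3.99 in immune and from 153 to 58.2 in other cells (0.383, 0.168 and 0.381).

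Immediate early genes, which cells switch on soon after a signal, were part of this set. Nr4a1, an orphan nuclear receptor, was at 692 and 371 CPM in epithelial cells (0.536), 453 and 196 in immune cells (0.434) and 1442 and 798 in other cells (0.554). Myc was at 163 and 57.3, 50.5 and 23.7, and 165 and 94.8 CPM (0.353, 0.468 and 0.576), and Fosl1, an AP-1 subunit, had ratios of 0.361, 0.478 and 0.380. Dusp5, a phosphatase that ends ERK signalling, was at 151 and 46.6, 216 and 93.5, and 33.6 and 16.6 CPM (0.309, 0.432 and 0.495). Across the list of immediate early genes, 10 of 27 measured members were lower past the fold in epithelial cells and none higher. In immune cells 6 of 27 and in other cells 11 of 28 were lower, again with none higher. These shares of 37.0%, 22.2% and 39.3% stand beside 18.0%, 4.29% and 14.3% of all genes. The list medians were -0.40, -0.39 and -0.59 log2, beside -0.25, -0.17 and -0.15. With size factors 9, 2 and 8 members were lower and 3, 1 and 1 higher.

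Rela, a subunit of NF-kappaB, was at 64.4 and 22.4 CPM in epithelial cells (0.348), 88.8 and 43.3 in immune cells (0.488) and 81.2 and 36.9 in other cells (0.455). Nfkb2, another subunit, had ratios of 0.474, 0.552 and 0.415, and Tnip1, an inhibitor of the pathway, of 0.471, 0.502 and 0.587. Notch2, a receptor of the Notch pathway, was at 63.6 and 29.8, 117 and 61.3, and 68.3 and 32.7 CPM (0.469, 0.522 and 0.479), and its co-activator gene Maml2 had ratios of 0.587, 0.509 and 0.465. The Notch list held few other calls: 1 member of 10 was higher and 2 lower in epithelial cells, near the 18.0% lower of all genes, 3 of 7 were lower in immune cells and 2 of 7 in other cells. Ndrg1, a gene known for its response to low oxygen, was at 73.6 and 38.7, 65.3 and 23.4, and 289 and 139 CPM (0.527, 0.358 and 0.481), and the glucose transporter gene Slc2a1 had ratios of 0.480, 0.527 and 0.541. Of the hypoxia and glycolysis list 4 of 18, 1 of 17 and 5 of 19 members were lower past the fold, 1 was higher in other cells, and the medians (-0.15, -0.07 and -0.19) were near those of all genes and turned to 0.04 and 0.10 in epithelial and immune cells with size factors.

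The circadian clock is a feedback loop in which Clock or Npas2 with Arntl (Bmal1) activate the Per, Cry, Nr1d and Dbp genes through E-boxes. The Nr1d proteins repress Arntl through ROR elements, and Dbp and Tef act on D-boxes. Nr1d1 was at 136 and 28.6 CPM in epithelial cells (0.210, 0.203 to 0.218), 39.3 and 4.28 in immune cells (0.109, 0.0592 to 0.187) and 111 and 19.6 in other cells (0.176, 0.160 to 0.192). Its ratios within the Krt5, fibroblast and macrophage gates were 0.132, 0.168 and 0.0897. Nr1d2 was at 43.3 and 17.5, 53.1 and 24.0, and 82.6 and 30.3 CPM (0.405, 0.451 and 0.367). Both repressors were low in all 3 compartments of the knockout. In other cells the output gene Dbp was at 50.8 and 7.52 CPM (0.148, 0.127 to 0.172), Tef at 33.7 and 11.6 (0.346), Cry2 at 48.8 and 19.1 (0.391) and Bhlhe40, a further repressor, at 229 and 76.9 (0.336). Npas2 was the 1 member higher past the fold there, at 28.3 and 55.1 CPM (1.95, 1.79 to 2.13), and 3 of 18 measured members lay above 1. Per1 had ratios of 1.07, 0.609 and 0.769, so it was near level in epithelial cells and lower in immune cells by about as much as the median of the list. Of the clock list 4 of 15 measured members were lower past the fold in epithelial, 2 of 14 in immune and 7 of 18 in other cells, where 1 was higher, and medians were -0.50, -0.72 and -0.63 log2. Over all genes 18.0%, 4.29% and 14.3% were lower, so the epithelial share of the list (26.7%) was not far above that of all genes. With size factors the counts of lower members were 4, 2 and 6.

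Promoters of both Nr1d genes are printed because their RNA was lower past the fold in every compartment, and that of Per1 because it was near level in epithelial cells. The windows run from 250 bases before to 50 after a start site in RefSeq on GRCm38.p6, 5′ to 3′ on the gene's strand, and capitals mark a match on either strand to the E-box CACGTG, the D-box TTATGNAA or the ROR element AGGTCA. Nr1d1 lies at chr11:98775328-98775627 on the minus strand, Nr1d2 at chr14:18239057-18239356 on the minus strand and the first of the Per1 windows at chr11:69098699-69098998 on the plus strand.
Nr1d1: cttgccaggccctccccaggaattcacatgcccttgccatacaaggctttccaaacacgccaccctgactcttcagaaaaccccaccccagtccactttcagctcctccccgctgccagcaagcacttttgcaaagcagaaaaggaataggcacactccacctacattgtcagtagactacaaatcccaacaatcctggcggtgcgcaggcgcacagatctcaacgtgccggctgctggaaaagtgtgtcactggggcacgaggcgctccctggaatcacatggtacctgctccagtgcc
Nr1d2: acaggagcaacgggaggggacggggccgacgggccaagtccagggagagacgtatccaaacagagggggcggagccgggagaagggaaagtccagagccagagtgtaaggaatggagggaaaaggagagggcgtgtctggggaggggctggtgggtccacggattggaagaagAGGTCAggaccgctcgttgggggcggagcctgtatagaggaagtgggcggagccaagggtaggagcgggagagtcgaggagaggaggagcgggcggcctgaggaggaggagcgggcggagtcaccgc
Per1: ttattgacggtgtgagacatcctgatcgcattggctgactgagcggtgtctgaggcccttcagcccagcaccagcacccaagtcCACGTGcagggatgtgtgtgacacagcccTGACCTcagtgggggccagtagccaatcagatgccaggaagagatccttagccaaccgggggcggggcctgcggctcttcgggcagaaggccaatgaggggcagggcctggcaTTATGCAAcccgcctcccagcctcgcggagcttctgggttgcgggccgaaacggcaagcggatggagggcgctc
The Nr1d1 window holds none of the 3 motifs, the Nr1d2 window 1 ROR element and the printed Per1 window 1 of each. A further Per1 window, at chr11:69099902-69100201 and not printed, holds none of them. Of 26 windows of 18 clock genes, 6 (23.1%) held an E-box, 2 (7.69%) a D-box and 5 (19.2%) a ROR element, and of all 32851 windows of this length 7.15%, 3.38% and 16.3% did. Windows of 1 gene can overlap. A match is a description of these letters only.

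Pecam1 was the 1 gene that met the rule on the higher side. It encodes CD31, known as an adhesion molecule of endothelial cells, platelets and leukocytes. Epithelial cells held 7.55 and 30.7 CPM (4.07, 3.85 to 4.30), immune cells 30.9 and 19.4 (0.628, 0.453 to 0.865) and other cells 38.8 and 36.6 (0.944, 0.866 to 1.03). The epithelial ratio was 6.48 times (4.73 to 8.89) the immune and 4.31 times (3.89 to 4.77) the other ratio. The Krt5 gate went from 1.94 to 10.6 CPM (5.49) and the multiciliated gate from 4.90 to 29.2 (5.95). In marker-gated cells, where the Krt5 gate stands for the epithelium and lies under the 20 CPM minimum, the rule named 0 higher genes of 3803. The 8 endothelial markers together summed to 11.9 and 34.0 CPM in epithelial cells, of which Pecam1 made up 7.55 and 30.7. With epithelial cells thinned to 8000 UMIs, 3.24% of control dorsal and 12.5% of knockout dorsal cells had a Pecam1 UMI, against 14.5% of control ventral and 15.5% of knockout ventral cells. Unthinned, these shares were 7.27%, 31.4%, 25.6% and 31.0%. The control dorsal library was therefore the low one of the 4.

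St3gal4 and Serpinb8 met it on the lower side. St3gal4, a sialyltransferase of glycoproteins, was at 229.7 and 99.5 CPM in epithelial cells (0.433, 0.425 to 0.442), at 80.2 and 79.3 in immune cells (0.989, 0.831 to 1.18) and at 106 and 90.0 in other cells (0.852, 0.807 to 0.899), with 0.383 in the Krt5 gate. Serpinb8, a serine protease inhibitor, was at 70.1 and 31.0 (0.442, 0.427 to 0.457), 81.4 and 69.6 (0.854, 0.714 to 1.02) and 38.0 and 37.3 CPM (0.982, 0.901 to 1.07). With size factors neither met the rule. The counterpart rule named Snx24, a sorting nexin, in immune cells (91.7 and 33.9 CPM, 0.370), and in other cells Epb41, of the membrane skeleton (13.7 and 34.7 CPM, 2.53), and Timm22, of the mitochondrial import machinery (36.3 and 139 CPM, 3.83).

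A further 761 genes were measured in epithelial cells and in neither other compartment, so whether their differences are shared cannot be read. Of these, 21 (2.76%) were higher and 306 (40.2%) lower past the fold, with a median of -0.47 log2. B4galnt2, a glycosyltransferase, was highest by ratio, at 2.63 and 32.5 CPM (12.4, 11.4 to 13.4). The neutrophil chemokine gene Cxcl5 was at 11.4 and 56.1 CPM (4.93), C2cd4b at 45.0 and 168 (3.73), Rnf186, a ubiquitin ligase, at 29.0 and 84.6 (2.92), and the antimicrobial genes Slpi and Defb1 at 10.5 and 29.8 (2.83) and at 78.2 and 144 (1.84). Slpi was 4.61-fold higher within the Krt5 gate. On the lower side Itln1, a lectin of mucosal surfaces, was at 509 and 10.0 CPM (0.0197, 0.0186 to 0.0208), and Ereg, a growth factor of the EGF family, at 21.6 and 3.98 (0.184). Genes of cilia such as Dnah3 (0.208), Hydin (0.219) and Cfap54 (0.222) were among the 10 lowest.

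Genes of the beta-catenin and cadherin junctions were lower in each compartment, with no member higher past the fold. Of 11 measured members of the beta-catenin and cadherin junction list, 7 were lower past the fold in epithelial cells, at a median of -0.79 log2, against 18.0% of all genes and a median of -0.25. Within the Krt5 gate 8 of 11 were lower (median -0.82), beside 791 of the 5669 genes measured there (median -0.18). Cdh1, the E-cadherin that binds beta-catenin, was at 304 and 151 CPM (0.497, 0.489 to 0.505), and Jup, the plakoglobin that can take the place of beta-catenin at junctions, at 150.4 and 79.2 (0.527). Immune cells had 1 of 8 (12.5%) and other cells 4 of 11 members (36.4%) lower past the fold, beside 4.29% and 14.3% of all genes. All measured members had ratios below 1 in both, with medians of -0.54 and -0.49 log2 beside -0.17 and -0.15. The polarity gene Pard3 was at 0.396 and 0.560. With size factors the lower members were 4 in epithelial cells, 1 in immune cells and 1 in other cells.

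Desmosome and tight junction genes had 10 of 17 members (58.8%) lower past the fold in epithelial cells and none higher. Their median was -0.69, and -1.01 in the Krt5 gate, beside -0.25 and -0.18 for all genes. The claudin gene Cldn4 was at 1101 and 349.6 CPM (0.318, 0.314 to 0.321), Ocln, of tight junctions, at 111 and 39.7 (0.356), the desmosomal cadherin Dsc2 at 43.2 and 18.9 (0.437) and Pkp4 at 73.0 and 39.0 (0.534). Matrix adhesion genes had 6 of 14 lower members in epithelial cells (42.9%, and 2 members with size factors). Among them the integrin gene Itgav was at 119.8 and 37.4 CPM (0.312), with 0.663 in immune and 0.529 in other cells. Fn1, fibronectin, went in opposite directions, from 145 to 273 CPM in immune cells (1.89, 1.69 to 2.12) and from 582 to 194 in other cells (0.333, 0.323 to 0.344). Actin and contractile genes had 11 of 16 lower members in epithelial and 11 of 24 in other cells, beside 18.0% and 14.3% of all genes, with Cald1, an actin-binding protein, at 40.2 and 10.7 CPM in epithelial cells (0.266) but 127 and 152 in other cells (1.2).

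Basal cell genes had calls in both directions in epithelial cells. Of 16 measured members 2 (12.5%) were higher and 4 (25%) lower past the fold, beside 1.9% and 18.0% of all genes. The list median was 0.01 log2, beside -0.25 for all genes, and 0.19 beside -0.05 with size factors. In the Krt5 gate, which uses 1 of the members, 1 was higher and 6 lower. Their median there was -0.09, beside -0.18 for all genes of that gate. Trp63, the basal cell transcription factor, was at 33.9 and 54.6 CPM (1.61, 1.56 to 1.67) and Krt5 at 366 and 349.5 (0.954). The stress-associated keratin Krt17 was at 293 and 142 CPM (0.484), and Krt14 at 52.7 and 15.4 (0.292). Within the Krt5 gate Krt14 was at 225 and 49.6 CPM (0.220) and Krt17 at 1106 and 361 (0.326). The heat shock gene Hspa1a, on this list as a marker, was at 555 and 1089 CPM (1.96), and at 135 and 244 in immune cells (1.81) but 288 and 299.7 in other cells (1.04).

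Genes of cilia were lower, several hillock genes were lower, and secretory genes were at the level of all genes. Of 27 measured multiciliated genes 24 were lower past the fold in epithelial cells and none higher (median -1.64 log2), beside a share of multiciliated cells of 6.69% against 15%. Within cells chosen by multiciliated markers 26 of 27 were lower as well (median -1.26), although 8 of the list's genes also chose those cells. Those cells had a median depth of 23357.5 UMIs in the control and 44279.5 in the knockout, so that knockout cells could reach 4 markers at lower levels. In the same gate 8 of 26 secretory and 7 of 16 basal genes were higher past the fold, with Scgb1a1, the secretoglobin of club cells, at 47796 and 127790 CPM (2.67). Of all 5744 genes measured in that gate 174 were higher and 1165 lower, with a median of -0.38 log2. What part depth, secretory RNA or the choice of cells has in these values was not tested. Fam183b, which took no part in that choice, was at 148 and 47.5 CPM in all epithelial cells (0.321) and at 1019 and 466 within the gate (0.458), and Hydin, of the ciliary central pair, had ratios of 0.219 and 0.314. The hillock and squamous list had 5 of 12 lower members (41.7%, beside 18.0% of all genes), and 7 of 12 in the Krt5 gate. Krt6a was at 87.2 and 16.7 CPM (0.192), Serpinb2 at 353 and 85.8 (0.243) and Krt13, the keratin of hillocks, at 194 and 90.7 (0.467). In the multiciliated gate 6 of 12 were higher and 3 lower, with Krt13 at a ratio of 2.01. Secretory genes had 2 higher and 5 lower members of 26, with a median (-0.25) equal to that of all genes and a share of lower members (19.2%) near the 18.0% of all genes. Scgb1a1 was at 82956 and 107344 CPM (1.29) and Bpifa1, a secreted antimicrobial protein, at 92039 and 116049 (1.26). Bpifb1, an antimicrobial protein of secretory cells, was at 958 and 294 CPM (0.307) and the trefoil factor Tff2 at 43.6 and 12.8 (0.292). In the Krt5 gate 8 of 26 secretory genes were lower and 1 higher (median -0.47). Of the 5669 genes measured there 791 were lower and 139 higher (median -0.18). Scgb1a1 was at 7506.5 and 4025 CPM in that gate (0.536) and Bpifa1 at 18539 and 22130 (1.19).

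**Figure D3:**
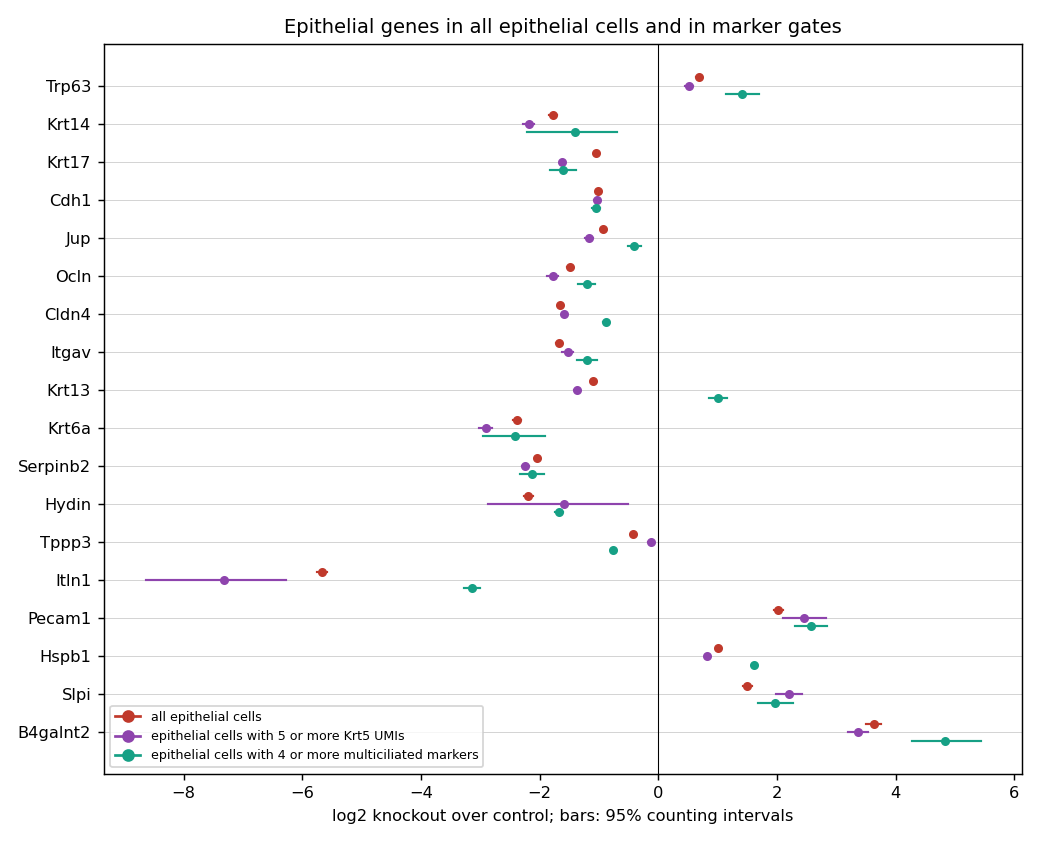
Log2 ratios of knockout to control for 18 epithelial genes in all epithelial cells, in cells of the Krt5 gate and in cells of the multiciliated gate, with 95% counting intervals as bars (a point is left out where fewer than 50 UMIs or no ratio was at hand). Cdh1, Ocln, Cldn4 and Itgav lie below 0 in each group of cells, Krt13 lies below 0 in all epithelial cells and above 0 in the multiciliated gate, and Pecam1, Slpi and B4galnt2 lie above 0 in each.

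Wnt target genes past the fold were mostly found in other cells. Of 15 measured members 11 (73.3%) were lower past the fold in other cells and none higher, beside 14.3% lower and 2.39% higher of all genes. Their median was -0.86 log2 against -0.15 for all genes. In the fibroblast gate 12 of 15 were lower (median -0.90), beside 966 of the 6843 genes measured there (median -0.14). Wif1, a secreted Wnt inhibitor, was at 492 and 91.9 CPM (0.187, 0.179 to 0.195), and 0.208 of the control within the fibroblast gate. The cell cycle gene Ccnd1 was at 49.5 and 19.6 CPM (0.396) and Cd44 at 153 and 74.1 (0.484). The Wnt feedback genes Nkd1 and Notum had ratios of 0.514 and 0.527, and the receptor gene Lgr5 of 0.551. In epithelial cells 1 of 9 members, Myc, was lower past the fold (11.1%, beside 18.0% of all genes). Ccnd1 was at 200.2 and 148 CPM there (0.740) and Cd44 at 289.7 and 237 (0.817). In immune cells 1 of 7 members was lower past the fold (14.3%, beside 4.29% of all genes). With size factors 4 of 13 members were lower in other cells, 1 of 9 in epithelial cells and 0 of 7 in immune cells. Of all genes 8.85%, 10.5% and 2.25% were lower with size factors in the same order. Axin2, a widely used Wnt target, was under the level needed for a call in each compartment, at 19.3 and 16.6 CPM in other cells.

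Matrix genes of other cells were lower together. Of 33 measured stromal matrix genes 18 were lower and 1 higher past the fold (median -0.84), beside 14.3% lower, 2.39% higher and a median of -0.15 over all genes of other cells. The counts were the same in the fibroblast gate (median -0.99), which some of these genes also chose. The fibrillar collagen genes Col1a1 and Col3a1 were at 1216 and 409 CPM (0.337) and at 1459 and 418 (0.287), and Col3a1 was at 1797 and 465 within the gate (0.259). Postn, periostin, was at 115 and 29.3 CPM (0.255) and Fmod, fibromodulin, at 76.4 and 7.96 (0.104). Ogn, osteoglycin, was the higher member, at 534 and 909 CPM (1.70), and Dcn, decorin, at 10555 and 13278 (1.26), did not pass the fold. Smooth muscle genes were far lower beside the lower sum of smooth muscle markers, with Des at 27.7 and 1.39 CPM (0.0504) and Cnn1 at 29.1 and 2.64 (0.0909). Chad, a cartilage matrix gene that also stands on the secretory list, was at 1716 and 266 CPM (0.155) beside the lower sum of chondrocyte markers. Fewer cells of a kind and less RNA in each cannot be told apart in such sums.

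In immune cells 7 genes of the interferon response and 4 lymphocyte genes were lower past the fold, and the interferon chemokine gene Cxcl9 was higher. Of 28 measured interferon genes 7 were lower and 2 higher past the fold (median -0.52), beside 4.29% lower, 1.43% higher and a median of -0.17 over all genes of immune cells. Of 15 lymphocyte genes 4 were lower and none higher, 6 lay above 1, and the median was -0.25, while T and NK cell markers summed to 687 and 635 CPM. Ifit3 was at 34.1 and 2.28 CPM (0.0669), Ifit2 at 24.8 and 1.71 (0.0690) and Rsad2, viperin, at 30.6 and 4.28 (0.140). Cxcl9, an interferon-induced chemokine, was at 8.05 and 91.8 CPM (11.4, 7.59 to 17.9), and its ratio in the macrophage gate was 13.4. Interferon genes had 5 of 14 lower members in epithelial (35.7%) and 7 of 22 in other cells (31.8%), none higher. Of all genes 18.0% and 14.3% were lower there, and the list medians were -0.57 and -0.52. In the Krt5 gate 1 of 14 was lower (median -0.21), and 8 of 14 in the multiciliated gate (median -0.83). Medians of all genes in these gates were -0.18 and -0.38. Among chemokines and cytokines 7 of 18 were lower in immune cells (38.9%, beside 4.29% of all genes). Ccl5, a chemokine of T and NK cells, was at 404 and 99.0 CPM (0.245), and at 1264 and 62.4 within the T and NK gate (0.0494). The granzyme gene Gzmb was at 88.2 and 16.3 CPM (0.184) and Gzma at 128 and 21.1 (0.165), while Gzmb within the gate was at 393 and 21.4. In other cells the eosinophil chemokine gene Ccl11 was at 137 and 384 CPM (2.81, 2.71 to 2.91).

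Macrophage genes were nearly level. Of 30 measured members in immune cells 1 was higher and 1 lower past the fold (3.33% each), beside 1.43% and 4.29% of all genes. Their median was 0.05 log2, beside -0.17 for all genes. Apoe, which carries lipids, was at 3004 and 5340.1 CPM (1.78) and the folate receptor gene Folr2 at 358 and 208 (0.580). In the macrophage gate they were at 5512 and 9242 (1.68) and at 661 and 359 (0.543). Among antigen presentation genes 2 of 19 were lower past the fold in immune cells (10.5%, beside 4.29% of all genes). In epithelial cells 2 of 9 were lower (22.2%, near the 18.0% of all genes). B2m, the light chain of class I molecules, was at 497 and 306 CPM in epithelial cells (0.614). The immune sums of the knockout hold 1 cell with 7080 of the compartment's 7120 haemoglobin UMIs and 1 cell with all 3050 Jchain UMIs, and no result above rests on those genes.

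Stress and hormone lists differed in the direction of their calls. In epithelial, immune and other cells 18, 20 and 24 glucocorticoid response genes were measured. Past the fold 4, 2 and 6 were higher and 2, 1 and 2 lower. The higher ones were 22.2%, 10% and 25% of the list, beside 1.9%, 1.43% and 2.39% of all genes. The lower ones were 11.1%, 5% and 8.33%, beside 18.0%, 4.29% and 14.3%. The list medians were -0.03, -0.06 and 0.25 log2, beside -0.25, -0.17 and -0.15. Tsc22d3, a classical glucocorticoid target, was at 75.2 and 199 CPM in epithelial cells (2.64) and 245 and 496 in other cells (2.02) but 292 and 337 in immune cells (1.16), while Fkbp5 was at 22.2 and 87.3 in immune cells (3.93) and 34.3 and 55.5 in other cells (1.62). Arl4d, a small GTPase gene, was at 7.18 and 46.7 (6.49), 12.2 and 24.0 (1.96) and 18.5 and 45.5 CPM (2.46). Heat shock genes had 3 of 17 (17.6%) higher members in epithelial, 2 of 15 (13.3%) in immune and 0 of 19 in other cells. None was lower past the fold. Hspb1 was at 602 and 1205 CPM in epithelial cells (2.0, 1.99 to 2.02) against 315 and 348 in other cells (1.10). Proliferation genes had no member past the fold in all epithelial (6 measured) or other cells (4), and 1 of 11 lower in immune cells, Cenpa, at 68.9 and 26.0 CPM (0.377). Of those 6, 1 was lower past the fold within the Krt5 gate. With the minimum level applied within that gate, 16 members were measured, 10 of them lower past the fold and none higher. Their median was -0.86 log2. Of all 6333 genes measured in that way, 884 were lower, with a median of -0.19. Cholesterol synthesis genes had 3 of 13 lower members in epithelial cells (23.1%, near the 18.0% of all genes) and none past the fold elsewhere. Genes of p53 and growth arrest had 1 higher and 1 lower member of 14 in epithelial cells. In immune cells 3 of 16 were lower (18.8%, beside 4.29% of all genes), and in other cells 1 of 15 was higher. Gdf15, a stress-induced cytokine of that list, was at 141 and 46.2 CPM in immune cells (0.327). The unfolded protein and integrated stress response had 1 higher and 1 lower member of 15, 1 lower of 16, and 2 higher and 1 lower of 16. The 2 higher ones in other cells were 12.5% of the list, beside 2.39% of all genes.

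**Figure D4:**
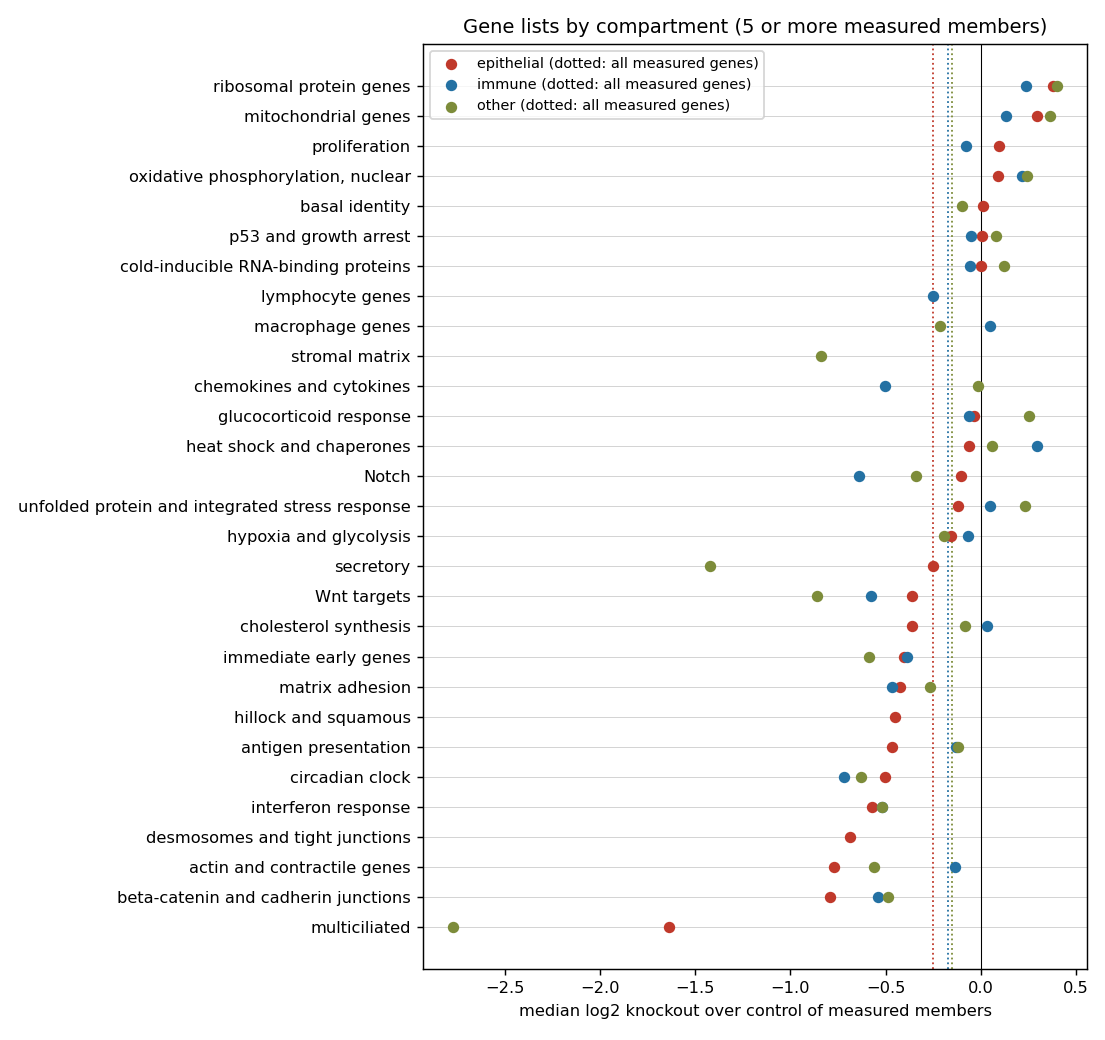
Median log2 ratio of knockout to control over the measured members of each gene list, for lists with at least 5 measured members in the compartment, and dotted lines at the median of all measured genes of each compartment (-0.25, -0.17 and -0.15). Ribosomal protein and mitochondrial genes lie right of 0 in all 3, multiciliated genes lie furthest left, and Wnt targets lie further left in other cells (-0.86) than in epithelial cells (-0.36).

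Ribosomal protein RNA took a higher share in each compartment of the knockout, and short transcripts were nearer to level than long ones. Ribosomal protein genes took 8.55% of epithelial UMIs in the control and 11.7% in the knockout, 13.9% and 17.2% of immune UMIs and 11.3% and 15.6% of other UMIs. Mitochondrial genes took 1.96% and 2.46%, 0.986% and 1.11%, and 1.10% and 1.41%. Of 83 measured ribosomal protein genes 16, 10 and 19 were higher past the fold and none lower, with medians of 0.38, 0.24 and 0.40 log2. With ribosomal protein and mitochondrial genes left out, the median log2 ratio of the shortest quintile of genes was -0.13 in epithelial, -0.04 in immune and 0.02 in other cells, and that of the longest quintile -0.44, -0.36 and -0.40. The 19 ranked genes higher in all 3 compartments had a median transcript length of 691 bases, the lower ones (49 of 50 with a length) of 2283 bases, and all genes measured in all 3 of 1100 bases. Length moved with the direction of the shared genes, and its part in their differences was not tested.

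**Figure D5:**
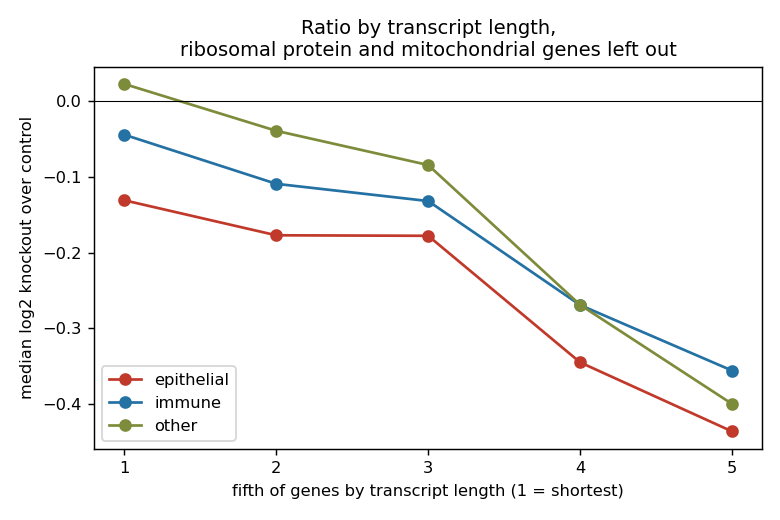
Median log2 ratio of knockout to control by quintile of genes ordered by transcript length, ribosomal protein and mitochondrial genes left out, for epithelial, immune and other cells. The medians of the longest quintile (-0.44, -0.36 and -0.40) lie below those of the shortest (-0.13, -0.04 and 0.02) in each compartment.

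The ventral pair, which shares no library with the dorsal pair, had fewer genes past the fold in epithelial and other cells and fewer lower genes in immune cells, while the share of higher genes in immune cells was the same. In ventral epithelial cells 27 genes (0.48% of 5629) were higher and 95 (1.69%) lower, in immune cells 92 (1.43% of 6435) and 63 (0.979%), and in other cells 59 (0.845% of 6981) and 124 (1.78%). In all 3 compartments 3 (0.0731% of 4103) were higher and 4 (0.0975%) lower, and 0 higher (0.0%) and 1 lower gene (0.0244%) were limited to the ventral epithelium. Of the 19 ranked dorsal genes higher in every compartment, 17 were measured ventrally and 0 lay above 1 in all 3 compartments there. Of the 50 lower ones 44 were measured, 32 lay below 1 in all 3 and 1, Gm56626, was past the fold in all 3. Its ventral ratios were 0.0835 in epithelial, 0.163 in immune and 0.135 in other cells. Nr1d1 had ventral ratios of 0.556, 0.468 and 0.340 and Nr1d2 of 0.589, 0.594 and 0.528, on the side of the dorsal pair and nearer to 1. Grik3 was at 0.970, 1.03 and 1.17 ventrally and Atp5k at 0.842, 1.01 and 0.919. Gm9750, lower dorsally, was at 1.35, 1.26 and 1.48. Pecam1 was at 0.878 in ventral epithelial cells, St3gal4 at 0.906 and Serpinb8 at 0.633. Itln1 had a ventral epithelial ratio of 0.0184, close to its dorsal 0.0197.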

How the data were processed

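Single-cell RNA libraries of the dorsal and ventral tracheal wall of control and knockout mice were used as deposited. The authors' matrices hold whole-number counts of UMIs per gene and barcode, made with Cell Ranger 10.0.0 on GRCm39 per the submitters' processing notes, with no normalization. From these counts, cells were filtered and split by Epcam and Ptprc, and UMIs were summed per library and compartment and scaled to CPM. The 26 symbols on more than 1 feature were summed. Ratios of knockout to control carry conditional binomial intervals (95%), and ratios of ratios log-normal ones. With 1 library a group there was no test. Named genes were up to 10 each way of the shared set (by the smallest bound over the compartments) and of the set limited to the epithelium (by the smaller ratio-of-ratios bound). Up to 4 measured members per gene list were named by the furthest bound, and Ctnnb1, eGFP and Epcam as checks. Sex-linked, haemoglobin and immunoglobulin genes were not ranked, nor were those of ribosomal proteins or the mitochondrial genome. Other genes were named after their values were seen. The members, the 29 gene lists and the 20 marker lists were chosen with earlier results of these data known. Doublets were kept. Scrublet, tried as an alternative, marked 276 control (2.08%) and 61 knockout cells (0.986%). On simulated counts with 3-fold changes, 50, 50, 48 and 49 of 50 genes were recovered in the 4 classes (shared higher and lower, limited to the epithelium higher and lower) and 0 of 4074 genes were wrongly called. Both simulated libraries were Poisson draws from the dorsal control profile, so they held counting error only. Differences between libraries in preparation, make-up or free RNA were not simulated, and wrong calls from these cannot be read from it. Other thresholds on genes, mitochondrial share and Epcam, doublet removal, other scalings, equal weight per cell, no minimum level, another fold and marker-gated cells were tried. Depth per compartment ranged from 3106608 to 252760838 UMIs. Software was Python 3.11.15 with numpy 2.4.6, scipy 1.17.1, pandas 2.3.3 and scanpy 1.11.5. Promoter sequences came from RefSeq on GRCm38.p6 and were matched by symbol.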

Additional observations from a re-analysis of the deposited data

Results flagged for a closer look

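Of the genes named, 2 had dorsal and ventral ratios on opposite sides of 1, both past 1.5-fold. The difference was not tested, since each region has 1 library of each genotype. Il31ra had a knockout over control ratio of 4.47 dorsally and 0.541 ventrally in epithelial cells, of 3.74 and 0.468 in immune cells, and of 4.14 and 0.439 in other cells. Its level was thus high in the dorsal knockout library and low in the ventral one, each against its own control, in all 3 compartments. Bpifb1 had a ratio of 0.307 dorsally and 2.23 ventrally in epithelial cells.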

How the results depend on the processing

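Of 42 alternative counts of shared and limited genes 29 stayed within 1.5 times the value reported, and of 270 alternative list medians 258 kept their value within the spread and their sign. The 31 shared higher genes became 60 with size factors (31 of the 31 among them) and 10 with a fold of 2, and the 50 shared lower genes became 15 and 4. Under the other alternatives the counts ran from 28 to 34 and from 37 to 74. Of the 50 lower genes 34 stayed without mitochondrial and ribosomal protein genes, 29 in marker-gated cells and 33 with equal weight per cell. Of the 31 higher genes 31, 26 and 27 stayed in the same settings. The 1 higher gene limited to the epithelium became 3 without mitochondrial and ribosomal protein genes, 5 with size factors and 0 in marker-gated cells. The 2 lower ones became 4 without doublets, 0 with size factors, 5 with equal weight per cell and 0 with a fold of 3 for the epithelium. The ratio of ratios alone, chosen after seeing the data, gave 14 and 20. Epithelial shares of control and knockout were 72.0% and 54.7% with at least 1000 genes and 57.0% and 37.8% thinned to 3000 UMIs; other shares were 24.1% and 39.8%, and 40.0% and 58.2%; immune shares when thinned were 2.78% and 3.68%. The Ctnnb1 ratio was 0.882 in epithelial and 0.824 in other cells with size factors, and 0.730 in gated epithelial cells. The multiciliated list in epithelial cells had a median of 0.12 log2 over 4 measured members in marker-gated cells, against -1.64 over 27, where the gate was that of Krt5, which leaves multiciliated cells out. The proliferation list in epithelial cells had a median of -0.86 over 16 measured members in marker-gated cells, against 0.10 over 6. Of the 16 members, 10 were lower past the fold, and of the 6 none. The causes of the differences other than that of the multiciliated list were not tested. No paired analysis was possible because each group had 1 library, and for the same reason no replicate could be left out. Immune counts limit depth most.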
